A study of Mus musculus with 96 samples.

Results

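The response to piericidin was examined in proliferating C2C12 myoblasts, a mouse muscle precursor cell line, that expressed LbNOX, a bacterial enzyme which oxidizes NADH to NAD+ in the cytosol and makes water. The samples were taken by their labels for transgene and treatment, which gave 3 piericidin and 3 DMSO (vehicle) libraries, or 6 of the 96 in the series. The comparison asks how much of the transcriptional response to a block of complex I is left when cytosolic NADH can be oxidized without the respiratory chain. All 6 libraries came from a stable lentiviral line in which doxycycline (300 ng/ml, added 24 hr ahead of the inhibitor) switched on the transgene, and treatment lasted 10 hr in pyruvate-free medium with dialyzed serum, in 24-well plates. Lines with a luciferase transgene (3 piericidin and 3 DMSO libraries), with mitoLbNOX, the same oxidase sent to the mitochondrial matrix (3 and 3), and with NDI1, a yeast enzyme that passes electrons from NADH to ubiquinone and is insensitive to piericidin (2 and 2), received the same doxycycline and treatments and served as references. The labels name no second line for any transgene, so that transgene and line cannot be told apart. The labels do not say whether replicates were separate cultures, and the p-values therefore measure the spread between these samples, which may be technical.

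Complex I passes electrons from mitochondrial NADH to ubiquinone and pumps protons, and piericidin blocks it at the quinone site. When it stops, NADH accumulates, proton pumping falls and the cell depends on glycolysis, whose NADH is recycled by lactate dehydrogenase or by the shuttles that carry reducing equivalents into mitochondria. Mitochondrial dysfunction is also known to turn on the integrated stress response (ISR), in which phosphorylation of eIF2 alpha slows general translation while the transcription factor ATF4 is made and induces genes for amino acid synthesis, amino acid uptake and tRNA charging.

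The LbNOX transcript had 6696 to 13457 estimated counts in the 6 LbNOX libraries and 0 in each of the 6 luciferase libraries. The 6 mitoLbNOX libraries, whose transgene was counted under the same name, had 19533 to 24020, so that its presence matched the labels but does not by itself tell LbNOX from mitoLbNOX. The 6 LbNOX libraries held 8449096 to 14960910 estimated counts, with piericidin replicate 2 the lowest. Transcripts encoded by mitochondrial DNA took 2.17 to 2.62% of the counts under DMSO and 2.03 to 2.19% under piericidin. All 8 myoblast markers, among them Myod1, Pax7 and Des, were measured, and their summed level of 8412 to 9002 normalized counts under DMSO and 8366 to 8807 under piericidin overlapped between the groups. One of them, the adhesion molecule Vcam1, went from 567, 481 and 534 to 444, 422 and 417 (-0.30 ± 0.10; edgeR adjusted p = 0.0499). That call, just past the threshold, was lost without any 1 LbNOX library other than DMSO replicate 2 (edgeR adjusted p of 0.0789 to 0.2), and also with DESeq2 size factors, without the filter on low counts, with the well as a covariate and with only the groups compared. Of 16 markers of differentiated myotubes only 5 were expressed highly enough to be tested, at a summed 198 to 281 normalized counts under DMSO and 386 to 439 under piericidin, ranges that did not overlap. Most of that sum was Acta1, which is described among the single genes. The labels also give each library a well, on a plate they do not name and whose rows go beyond those of the 24-well culture plates. Read as a plate of 96 wells, DMSO replicates 1 and 2 and piericidin replicate 2 had outer positions. These are bulk libraries, in which fewer cells of a kind and less RNA per cell cannot be told apart.

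Piericidin changed 1063 of 11978 genes in LbNOX myoblasts, or 8.87%, at an adjusted p of 0.05 (edgeR, quasi-likelihood F test). Of these, 600 genes (5.01%) rose and 463 (3.87%) fell. The changes were small: the median size among the changed genes was 0.34 on the log2 scale, 71 genes rose and 16 fell by at least 2-fold, and the median over all genes was -0.00. When only the 6 LbNOX libraries were fitted, 558 genes passed. In luciferase myoblasts the same inhibitor changed 7390 genes, or 61.7%, of which 3705 (30.9%) rose and 3685 (30.8%) fell, and 2446 of them by at least 2-fold. The response itself differed between LbNOX and luciferase myoblasts for 5310 genes, or 44.3% (edgeR interaction term).

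Most of what was left in LbNOX myoblasts ran in the direction seen in luciferase myoblasts. Of the 1063 genes, 797 (75.0%) changed the same way in luciferase myoblasts, 487 up and 310 down, where they made up 10.8% of the changed genes, 114 (10.7%) changed the opposite way and 152 (14.3%) did not pass there. Among the 797, the response differed between the lines for 539 genes, and it was smaller in LbNOX myoblasts for 529 and larger for 10. Viewed from the other side, of the 2446 genes that changed at least 2-fold in luciferase myoblasts, 378 changed the same way with LbNOX, 13 the opposite way and 2055 did not pass. The median ratio of the log2 fold change in LbNOX myoblasts to that in luciferase myoblasts over these genes was 0.133, with quartiles of 0.00495 and 0.274. It was 0.203 for the 1070 that rose in luciferase myoblasts and 0.105 for the 1376 that fell. These genes were chosen by their size in luciferase myoblasts, and the ratio is a description without a test. The same ratio was 0.183 in mitoLbNOX and 0.0520 in NDI1 myoblasts.

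**Figure D1:**
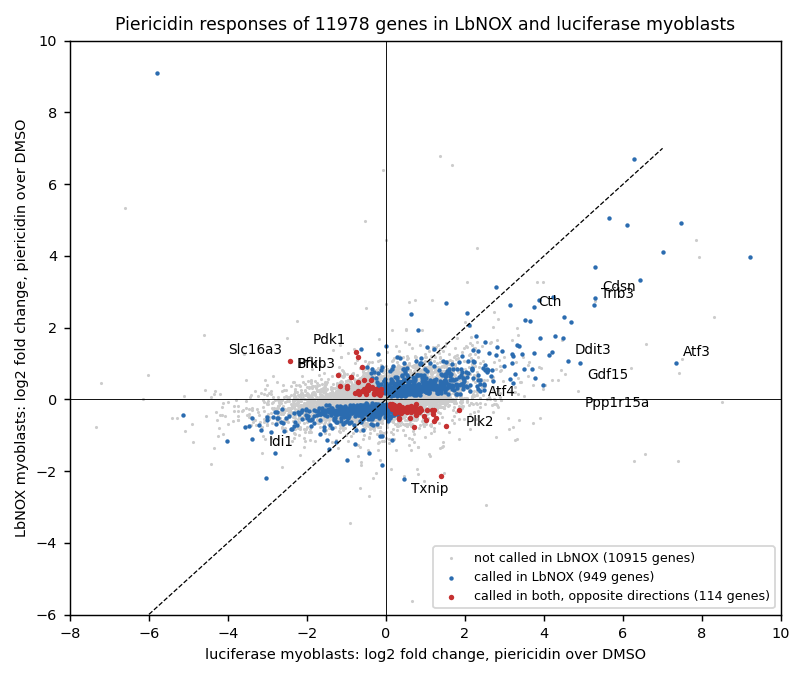
Log2 fold change under piericidin in luciferase myoblasts (horizontal axis) and in LbNOX myoblasts (vertical axis); points are the 11978 genes tested, coloured by their call in LbNOX myoblasts, and the dashed line marks equal responses. Most of the 1063 called genes lie between the horizontal axis and the dashed line, while 114 (red) lie in the upper left or lower right quadrant.

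Transcripts of the ISR regulators rose in LbNOX myoblasts, with 10 of 13 measured members higher and none lower, against 5.01% of all genes. The median log2 fold change over the 13 genes was 0.72 in LbNOX, 2.51 in luciferase, 1.22 in mitoLbNOX and 0.16 in NDI1 myoblasts. Atf4 (chromosome 15, 80255184 to 80257541, GRCm38), which encodes the central transcription factor of this response, stood at 2356, 2306 and 2310.1 normalized counts under DMSO and 3337, 3498 and 3399.7 under piericidin. The 3 piericidin libraries lay above the 3 DMSO libraries, by 0.55 ± 0.03 on the log2 scale (SE; edgeR adjusted p = 6.30e-14), while luciferase myoblasts moved from 2432, 2357 and 2508 to 12345, 12898 and 12991 and the response differed by -1.84 ± 0.05 (edgeR adjusted p = 1.16e-23).

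Trib3 (chromosome 2, 152337422 to 152344032), a pseudokinase that restrains ATF4, kept the largest response of the list. Its normalized counts were 60.9, 89.8 and 76.6 under DMSO and 464, 468 and 487 under piericidin, a log2 fold change of 2.62 ± 0.09 (SE; edgeR adjusted p = 4.32e-19) beside 5.26 ± 0.09 in luciferase myoblasts. The groups were far apart in both lines, and the treated luciferase libraries reached 3158, 3534 and 3204. Ddit3, which encodes the stress transcription factor CHOP, had 144, 152 and 147 normalized counts under DMSO and 288, 324 and 322 under piericidin with LbNOX, against 3870.0, 3945 and 3928 in treated luciferase myoblasts. Its rise of 1.07 ± 0.07 (edgeR adjusted p = 8.72e-13) left every treated library above every control library and far below every treated luciferase library. Eif4ebp1, the translational repressor 4E-BP1, rose by 1.04 ± 0.03 (edgeR adjusted p = 7.68e-20) beside 1.85 ± 0.03 with luciferase.

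The share of the luciferase response that was left differed between members of this list. Atf3, a transcription factor downstream of ATF4, had 8.05, 16.6 and 7.85 normalized counts under DMSO and 23.9, 26.8 and 20.2 under piericidin in LbNOX myoblasts, while in luciferase myoblasts it went from 6.67, 10.9 and 12.6 to 1642, 1760.3 and 1565. The LbNOX groups did not overlap but lay close together, and the log2 fold change of 1.02 ± 0.31 (edgeR adjusted p = 0.0389) stood beside 7.33 ± 0.21 with luciferase. The call was lost (edgeR adjusted p in brackets) without piericidin replicate 1 (0.103), piericidin replicate 2 (0.106), piericidin replicate 3 (0.0501), DMSO replicate 1 (0.155) and DMSO replicate 3 (0.124). It was also lost when only the 6 LbNOX libraries were fitted (edgeR adjusted p = 0.123). Ppp1r15a, the phosphatase subunit GADD34 that ends the ISR, had 220.2, 242 and 188 under DMSO and 299.7, 257 and 216 under piericidin with LbNOX. These groups overlapped and the difference of 0.24 ± 0.10 did not pass (edgeR adjusted p = 0.133; without piericidin replicate 3 it passed at 0.0231), whereas luciferase myoblasts went from 152, 197 and 187 to 5243, 5156 and 5204. The ratio of the LbNOX to the luciferase log2 fold change was 0.565 for Eif4ebp1, 0.499 for Trib3, 0.233 for Ddit3, 0.231 for Atf4, 0.139 for Atf3 and 0.0492 for Ppp1r15a.

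**Figure D2:**
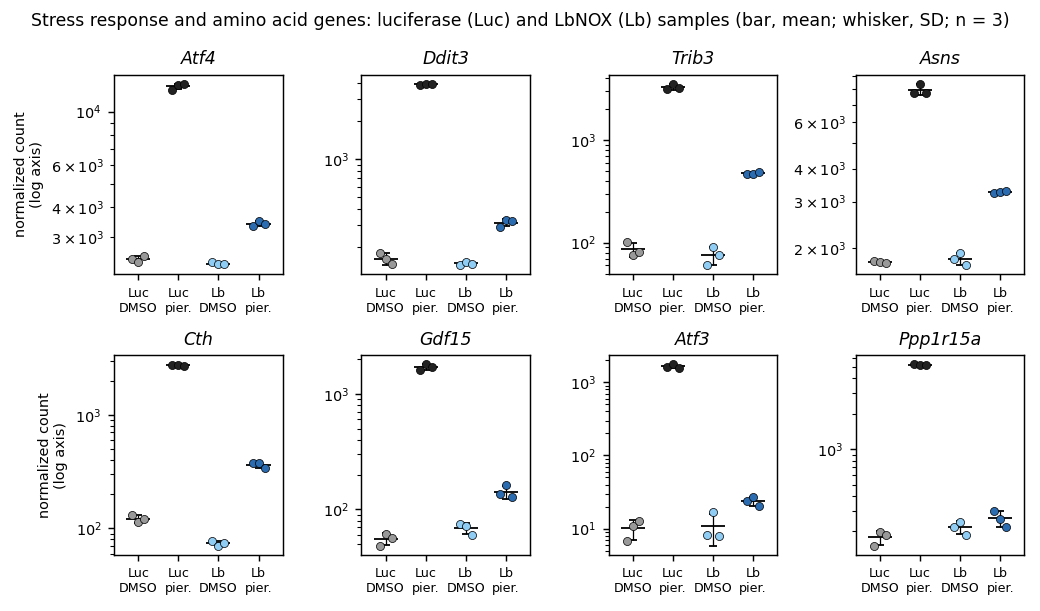
Normalized counts (log axis) of 8 genes in the 3 libraries of each of 4 groups, luciferase (Luc) and LbNOX (Lb) myoblasts with DMSO or piericidin; bars are means and whiskers SD. The treated LbNOX libraries sit above their controls for Atf4, Ddit3, Trib3, Asns, Cth, Gdf15 and Atf3, overlap them for Ppp1r15a, and sit below the treated luciferase libraries in all 8 panels.

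Gdf15, a secreted stress hormone (chromosome 8, 70629393 to 70632456), went from 74.3, 71.1 and 59.9 normalized counts under DMSO to 135, 162 and 127 under piericidin in LbNOX myoblasts. All treated libraries lay above all controls (1.03 ± 0.13 on the log2 scale; edgeR adjusted p = 6.73e-07), and all lay far below the 1592, 1793 and 1689 of treated luciferase myoblasts. Fgf21, the other hormone linked to mitochondrial disease, was at 1.79, 0 and 0 normalized counts under DMSO and 3.11, 5.10 and 1.83 under piericidin, and did not pass (edgeR adjusted p = 0.197).

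Genes of amino acid synthesis and one-carbon metabolism rose together. Of 18 members, 13 rose and none fell with LbNOX, against 5.01% and 3.87% of all genes, with a median log2 fold change of 0.58 beside 1.61 in luciferase myoblasts, and the same number of 13 rose when any single LbNOX library was left out, while 1 fell without DMSO replicate 2. Cth, which makes cysteine from cystathionine, went from 77.0, 70.5 and 74.6 to 374, 379.8 and 337 normalized counts (2.29 ± 0.10 on the log2 scale; edgeR adjusted p = 3.15e-16). Under DMSO it was already lower with LbNOX than with luciferase, by -0.71 ± 0.11 on the log2 scale (edgeR adjusted p = 1.17e-04). Asns, asparagine synthetase, went from 1817, 1920.1 and 1729.9 to 3225, 3271 and 3282, and Pck2, the mitochondrial phosphoenolpyruvate carboxykinase, from 1027, 975 and 964 to 2325, 2377 and 2169. For both genes the libraries of the treatments were clearly apart, and the ratio to the luciferase log2 fold change was 0.385 for Asns and 0.629 for Pck2. The mitochondrial folate enzyme Mthfd2 rose by 0.86 ± 0.05, the alanine transaminase Gpt2 by 1.46 ± 0.11 and the proline synthesis enzyme Pycr1 by 1.00 on the log2 scale. Among the members that did not pass, Shmt1 was at 0.04, Cbs at -0.46 and Glul at -0.29 on the log2 scale.

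Amino acid transporters and tRNA synthetases moved in the same direction to a smaller extent. Among 12 transporters 9 rose and 1 fell, again against 5.01% and 3.87% of all genes, with a median of 0.35 beside 1.91 in luciferase myoblasts. Slc7a5, the large neutral amino acid carrier, went from 94.9, 112 and 106 to 256, 209 and 275 normalized counts, and its heavy chain Slc3a2 from 1859, 1914 and 1797 to 2864, 2947 and 2956. The groups did not overlap for either chain (1.24 ± 0.13 and 0.65 ± 0.04 on the log2 scale; edgeR adjusted p = 6.55e-08 and 6.12e-14). Slc38a2, the glutamine carrier SNAT2, went the other way, from 3737, 3521 and 3498 under DMSO to 2895, 2809 and 2833 under piericidin (-0.34 ± 0.05; edgeR adjusted p = 5.00e-06). It rose in luciferase myoblasts (0.27 ± 0.05; edgeR adjusted p = 7.41e-06) and the response differed between the lines by -0.61 ± 0.06. Of 20 cytosolic tRNA synthetases 14 rose and none fell, beside the same shares over all genes, at a median of 0.36 beside 1.42 with luciferase, and Sars (0.82 ± 0.04), Gars (0.55 ± 0.04) and Nars (0.52 ± 0.04), the enzymes for serine, glycine and asparagine, were among those that rose. Dars, Farsa, Hars, Kars, Qars and Vars did not pass.

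A motif of the kind bound by ATF4 dimers was counted in the promoters of these genes. The letters TGATGNAA were searched on both strands of RefSeq promoter windows on GRCm38.p6 (250 bases before to 50 after the start), which matched 8831 of the 11978 genes. The motif was found for 37 of 456 genes that rose (8.11%), for 11 of 52 that rose at least 2-fold (21.2%), for 7 of 358 that fell (1.96%) and for 226 of all 8831 (2.56%), with 1.33, 1.35, 1.19 and 1.28 windows searched per gene. The E-box CACGTG was found for 16.2% of the genes that rose and 12.2% of all. These shares are descriptions without a test, and a match is not evidence of binding. Stretches before the start of 5 genes that rose are shown because they hold the motif, in capitals, once or, for Slc7a11, in both orientations. Slc7a11, which imports cystine, rose from 41.2, 56.5 and 33.4 to 103, 119.8 and 117 normalized counts (1.34 ± 0.19). The stretches are those of Asns (chr6:7693210-7693272, minus strand), Slc7a11 (chr3:50443614-50443719, minus strand), Pck2 (chr14:55540123-55540210, plus strand), Atf3 (chr1:191183396-191183483, minus strand) and Gars (chr6:55037931-55038000, plus strand).
Asns: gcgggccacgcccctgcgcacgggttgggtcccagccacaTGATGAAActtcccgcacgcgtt
Slc7a11: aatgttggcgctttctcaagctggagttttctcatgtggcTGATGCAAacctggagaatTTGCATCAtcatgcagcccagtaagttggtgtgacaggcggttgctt
Pck2: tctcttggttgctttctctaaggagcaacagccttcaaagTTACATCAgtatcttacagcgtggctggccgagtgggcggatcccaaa
Atf3: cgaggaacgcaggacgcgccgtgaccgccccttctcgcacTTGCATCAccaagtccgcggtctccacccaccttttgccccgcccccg
Gars: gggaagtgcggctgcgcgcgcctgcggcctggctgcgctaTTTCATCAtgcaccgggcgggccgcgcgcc

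Glycolysis turns glucose to pyruvate and makes NADH in the cytosol. On its list 7 genes rose in LbNOX myoblasts and fell in luciferase myoblasts, as did 39 of all 11978 genes. Of 21 members 11 rose and none fell with LbNOX, where 5.01% of all genes rose and 3.87% fell. With luciferase 5 rose and 15 fell, where 30.9% of all genes rose and 30.8% fell, so that the share that rose there was not above that of all genes. The response differed between the lines for 17 of the 21. The median log2 fold change was 0.20 with LbNOX, -0.48 with luciferase, 0.02 with mitoLbNOX and -0.03 with NDI1. The count of 11 was the same without any single LbNOX library. Slc16a3 (chromosome 11, 120948480 to 120960868), the lactate exporter MCT4, went from 127, 150.2 and 111 normalized counts under DMSO to 278, 264 and 278 under piericidin with LbNOX, and from 78.1, 62.7 and 56.0 to 13.2, 11.7 and 11.2 with luciferase. Of the 4 groups, treated LbNOX libraries were the highest and treated luciferase libraries the lowest. The log2 fold changes were 1.07 ± 0.19 (edgeR adjusted p = 2.50e-04) and -2.44 ± 0.27 (edgeR adjusted p = 5.69e-09), and they differed by 3.51 ± 0.33 (edgeR adjusted p = 5.28e-10). Slc16a3 was also 0.98 ± 0.20 higher with LbNOX than with luciferase under DMSO (edgeR adjusted p = 0.00341).

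Pfkl, the liver-type subunit of phosphofructokinase, went from 984, 1011 and 908 to 1559.7, 1490.0 and 1575 with LbNOX and from 848, 932 and 908 to 366, 395 and 393 with luciferase. Ldha, the lactate dehydrogenase that turns NADH back into NAD+, went from 13706, 13605 and 13038 to 15563, 16210.0 and 16161 with LbNOX and from 12455, 12926 and 12600.0 to 8293, 8547 and 8269.6 with luciferase. In both genes the treated libraries lay above all controls with LbNOX and below all controls with luciferase, with a difference between the responses of 1.89 ± 0.12 for Pfkl and 0.85 ± 0.05 for Ldha (edgeR adjusted p = 6.15e-14 and 1.37e-14). Tpi1, triosephosphate isomerase, rose by 0.31 ± 0.04 with LbNOX and was at -0.48 ± 0.04 with luciferase, and the aldolase Aldoa rose by 0.37 ± 0.03 and was at -0.02 ± 0.03 with luciferase, the latter not passing (edgeR adjusted p = 0.549). At the uptake and entry steps, the hexokinase Hk2 went from 220.2, 212 and 216 to 418, 444 and 334 with LbNOX (0.88 ± 0.10) and rose more with luciferase (2.45 ± 0.10), as did the glucose transporter Slc2a1 (0.54 beside 1.68). Gapdh, Eno1, Pgam1, Tpi1 and Ldha have many processed pseudogenes, so that sharing of reads with near-identical copies makes their levels less certain.

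**Figure D3:**
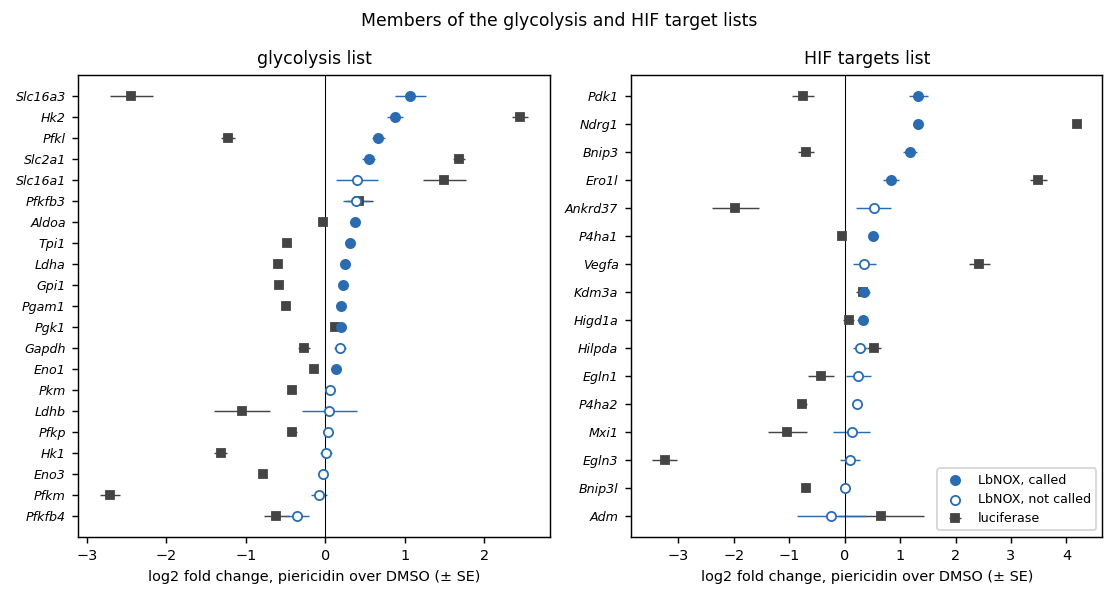
Log2 fold change under piericidin (horizontal axis, ± SE) of the 21 glycolysis genes and 16 HIF target genes tested, in LbNOX (circles, filled where called) and luciferase myoblasts (squares). With LbNOX 11 and 7 genes are called, all on the right of zero, while 15 and 7 genes fall with luciferase.

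Target genes of the hypoxia-inducible factor HIF, which is stable when oxygen is low, were counted in both lines. Of 16 members 7 rose and none fell with LbNOX, at a median of 0.34, where 5.01% of all genes rose and 3.87% fell. With luciferase 5 rose and 7 fell, at a median of -0.23, where 30.9% of all genes rose and 30.8% fell. Pdk1 (chromosome 2, 71873224 to 71903858), a kinase that shuts off pyruvate dehydrogenase, went from 141, 169.5 and 141 to 439, 338 and 366 with LbNOX and from 64.8, 113 and 87.9 to 61.3, 52.5 and 46.0 with luciferase. Bnip3 (chromosome 7, 138890836 to 138909519), a mitophagy receptor, went from 329, 264 and 264 to 598, 695 and 659 and from 264, 210.1 and 194 to 164, 152 and 98.6. Both genes rose with LbNOX (1.33 ± 0.16 and 1.18 ± 0.13; edgeR adjusted p = 8.49e-07 and 7.05e-08) and fell with luciferase (-0.75 ± 0.20 and -0.69 ± 0.14), without overlap between treated and control libraries. P4ha1, a collagen prolyl hydroxylase, went from 1574, 1547 and 1378 to 2064, 2241 and 2109.8 with LbNOX (0.51 ± 0.05), and its luciferase difference of -0.05 ± 0.05 did not pass (edgeR adjusted p = 0.457). Pdk1 and P4ha1 were also higher with LbNOX under DMSO, by 0.76 ± 0.17 and 0.23 ± 0.05 on the log2 scale (edgeR adjusted p = 0.0105 and 0.0082). Other members kept the luciferase direction at a smaller size: Ndrg1 rose by 1.32 ± 0.06 beside 4.20 ± 0.07, and Ero1l, an oxidase of the endoplasmic reticulum, by 0.84 beside 3.49. Vegfa, Egln1, Egln3, Bnip3l and Ankrd37 were among the 9 that did not pass with LbNOX.

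The core ACGTG, which HIF sites contain, was counted after these genes had been seen. It was found on either strand of the promoter window for 13 of 21 glycolysis genes (61.9%) and 10 of 13 HIF targets (76.9%), against 30.1% of all 8831 genes and 34.9% of the genes that rose. More sequence was searched for these lists, with 1.52 windows per glycolysis gene and 1.54 per HIF target beside 1.28 over all genes, and the shares were not adjusted for it. It also lies within the E-box CACGTG. Of the genes that rose with LbNOX and fell with luciferase, 11 of 31 with a window held the core (35.5%). The stretches before the start of Slc16a3 (chr11:120949000-120949066, plus strand), Bnip3 (chr7:138909569-138909654, minus strand) and P4ha1 (chr10:59323240-59323295, plus strand) are shown because they hold it. Their genes rose with LbNOX and not with luciferase, as did others not shown, such as Aldoa and Esd. The core is in capitals, read on the strand shown or its complement.
Slc16a3: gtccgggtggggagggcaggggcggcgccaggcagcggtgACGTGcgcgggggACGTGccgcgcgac
Bnip3: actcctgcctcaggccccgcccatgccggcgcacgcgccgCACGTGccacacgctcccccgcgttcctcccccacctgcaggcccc
P4ha1: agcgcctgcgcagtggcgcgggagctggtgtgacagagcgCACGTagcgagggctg

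**Figure D4:**
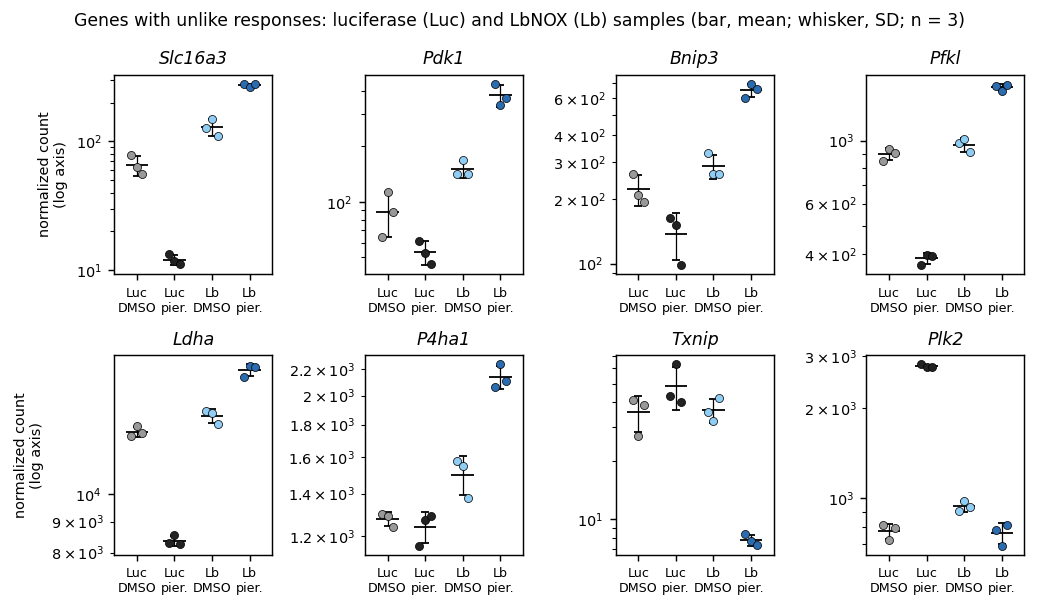
Normalized counts (log axis) of 8 genes in the 3 libraries of each of 4 groups, luciferase (Luc) and LbNOX (Lb) myoblasts with DMSO or piericidin; bars are means and whiskers SD. Slc16a3, Pdk1, Bnip3, Pfkl and Ldha rise with LbNOX and fall with luciferase, P4ha1 rises and Txnip falls with LbNOX alone among these 2 lines, and Plk2 falls with LbNOX and rises with luciferase.

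In all, 39 genes rose with LbNOX and fell with luciferase, of which 7 were on the glycolysis list, and 75 did the reverse. For the 39 the median log2 fold changes were 0.29 and -0.50, and for the 75 they were -0.28 and 0.47. The kinase Plk2, a p53 target, went from 905, 977 and 929.7 to 779, 692 and 813 with LbNOX and from 809, 723 and 792 to 2810.5, 2759 and 2761 with luciferase. Its treated libraries lay below the controls with LbNOX and far above them with luciferase, and the responses differed by -2.14 ± 0.08 (edgeR adjusted p = 4.60e-19). The fall with LbNOX, -0.30 ± 0.06, was not called when only the 6 LbNOX libraries were fitted (edgeR adjusted p = 0.0617). Dynap was at -0.29 ± 0.05 with LbNOX and 0.89 ± 0.05 with luciferase, and the haem transporter Slc48a1 at 0.19 ± 0.04 and -0.78 ± 0.04. Without the filter on low counts Slc48a1 was not called with LbNOX (edgeR adjusted p = 0.105). The immediate early gene Jun was at -0.31 ± 0.05 with LbNOX and 0.76 ± 0.05 with luciferase, both past the threshold. Jun also fell with mitoLbNOX (-0.50 ± 0.05; edgeR adjusted p = 1.40e-08). Its difference between LbNOX and mitoLbNOX was not called (0.19 ± 0.07; edgeR adjusted p = 0.475). Leaving out 1 LbNOX library gave 71 to 107 genes with opposite directions in place of 114, with 71 without piericidin replicate 1 and 73 without DMSO replicate 2. In place of 75, the number that fell with LbNOX was 41 without piericidin replicate 1, 44 without piericidin replicate 3, 42 without DMSO replicate 1 and 39 without DMSO replicate 2. With only the groups compared in the fit there were 49 with opposite directions, of which 26 in place of 39 rose with LbNOX and 23 in place of 75 fell. Without the filter on low counts there were 87, of which 46 rose with LbNOX and 41 fell.

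Txnip (chromosome 3, 96557957 to 96561883), an inhibitor of glucose uptake whose gene is driven by the glucose sensor MondoA, fell with LbNOX. It had 35.8, 31.9 and 42.2 normalized counts under DMSO and 8.30, 7.65 and 7.33 under piericidin with LbNOX, and 41.0, 27.0 and 38.6 and 43.3, 63.0 and 40.4 with luciferase. The LbNOX groups were well apart at low counts (-2.22 ± 0.35; edgeR adjusted p = 5.21e-05), the luciferase groups did not differ past the threshold (0.46 ± 0.29; edgeR adjusted p = 0.17), and the responses differed by -2.68 ± 0.46 (edgeR adjusted p = 1.62e-05). Txnip also fell with mitoLbNOX (-1.20 ± 0.33; edgeR adjusted p = 0.0147), and the difference between LbNOX and mitoLbNOX was not called (-1.02 ± 0.49; edgeR adjusted p = 0.716). Of the 5 genes tested on the MondoA list 3 fell, beside 3.87% of all genes, and the 2 that did not pass were at 0.158 and 0.655. Klf10 fell with LbNOX (-0.40 ± 0.08) and more with luciferase (-1.57 ± 0.08; edgeR adjusted p = 1.36e-16). Mlx, the partner of MondoA rather than a target, was just past the threshold (-0.27 ± 0.08; edgeR adjusted p = 0.0398). It did not pass without piericidin replicate 1 or any 1 of the 3 DMSO libraries (edgeR adjusted p = 0.24, 0.0848, 0.102 and 0.0807). The call of Mlx was also lost without the filter on low counts, with the well as a covariate and with only the groups compared (edgeR adjusted p = 0.105, 0.0522 and 0.122).

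Genes of sterol and fatty acid synthesis fell. Of 35 members 23 fell and none rose with LbNOX, against 3.87% of all genes, at a median of -0.36 beside -1.50 with luciferase, where 34 fell beside 30.8% of all genes. Idi1, an isomerase of the mevalonate pathway (chromosome 13, 8885501 to 8892451), went from 1606, 1499.9 and 1503 to 827, 911 and 806 normalized counts (-0.86 ± 0.07; edgeR adjusted p = 3.42e-10), and Hmgcs1, at the entry of the pathway, from 1883, 1925 and 1866 to 1091, 1149.7 and 1147 (-0.75 ± 0.06; edgeR adjusted p = 3.84e-10). The treated libraries of both genes lay below all controls. With luciferase the falls were larger, to 159.9, 175 and 204 for Idi1, and the responses differed for 31 of the 35 genes. Msmo1, a sterol methyl oxidase, was among the 4 without a called difference, and went from 1252, 1195 and 1189.9 to 841, 834 and 821 with LbNOX (-0.55 ± 0.05) and fell with luciferase as well (-0.40 ± 0.05), a difference of -0.15 ± 0.07 that did not pass (edgeR adjusted p = 0.106). Scd2, a fatty acid desaturase, was at -0.52 ± 0.04 with LbNOX and -3.39 ± 0.05 with luciferase. Insig1, Acly and Acaca were among the 12 that did not pass with LbNOX.

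Proliferation genes fell by small amounts. Of 22 genes of G2 and mitosis 16 fell and none rose with LbNOX, at a median of -0.26, where 3.87% of all genes fell and 5.01% rose. With luciferase 15 fell and 3 rose, at a median of -0.37, where 30.8% of all genes fell and 30.9% rose. Mki67, the proliferation marker Ki-67, went from 1138, 1168 and 1315 to 938, 888 and 825 (-0.45 ± 0.07; edgeR adjusted p = 1.73e-05), and the spindle protein Nusap1 from 752, 749 and 769.7 to 565, 566 and 542 (-0.44 ± 0.06; edgeR adjusted p = 6.38e-06). Neither gene's groups overlapped. The response of Nusap1 with luciferase was -0.23 ± 0.06, and the difference between the lines did not pass (edgeR adjusted p = 0.0527). In place of 16, the number that fell was 7 without piericidin replicate 1, 9 without piericidin replicate 3, 10 without DMSO replicate 1 and 9 without DMSO replicate 2.

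Of 33 genes of G1 and S phase 12 fell and 1, E2f1, rose with LbNOX, at a median of -0.18, whereas 30 fell with luciferase, at a median of -0.94, beside the same shares over all genes, and the responses differed for 30 of the 33. Tk1, thymidine kinase, went from 1978, 2013 and 2051 to 1641, 1739.8 and 1612 with LbNOX and from 1899, 1959 and 2037 to 327, 318 and 306 with luciferase. The LbNOX libraries were apart by -0.28 ± 0.05 on the log2 scale (edgeR adjusted p = 5.58e-04), the luciferase libraries by -2.63 ± 0.06. Cyclin E1, Ccne1, went from 881, 917 and 819 to 644, 687 and 735 (-0.34 ± 0.09; edgeR adjusted p = 0.00952), and the call was lost without piericidin replicate 1 (adjusted p = 0.0653) or DMSO replicate 2 (adjusted p = 0.0595). The number of G1 and S phase genes that fell was 7 without piericidin replicate 3 or DMSO replicate 1, and 0 rose without piericidin replicate 2 or 3 or DMSO replicate 3. Cdkn1a, the p53-driven inhibitor p21, had 1194, 1094 and 1206 under DMSO and 1119, 1118 and 1015 under piericidin with LbNOX, groups that overlapped (edgeR adjusted p = 0.219), and rose with luciferase by 0.99 ± 0.05. Of 21 p53 targets none rose and 4 fell with LbNOX, Ccng1, Plk2, Gtse1 and Eda2r, beside 3.87% of all genes that fell. With luciferase 10 rose and 7 fell, beside 30.9% and 30.8% of all genes. The count of 4 with LbNOX was 2 without piericidin replicate 2 or DMSO replicate 2. The median of the list with LbNOX, -0.11, ran from -0.184 to -0.0915 when 1 LbNOX library was left out.

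**Figure D5:**
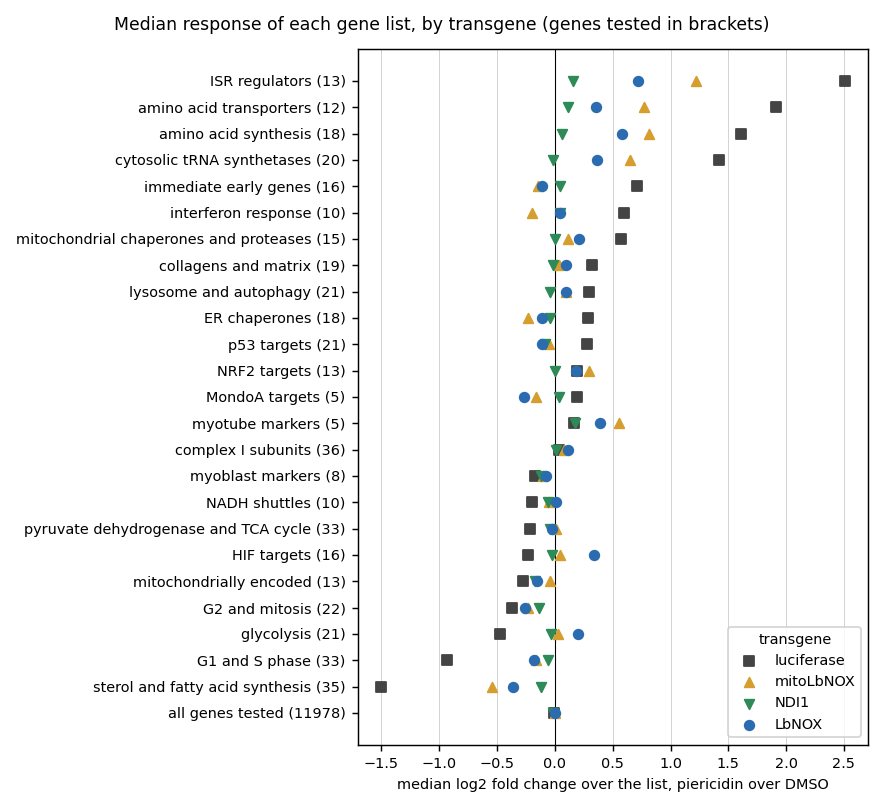
Median log2 fold change under piericidin (horizontal axis) of each gene list, with the number of genes tested in brackets, in luciferase, mitoLbNOX, NDI1 and LbNOX myoblasts. The LbNOX median lies between zero and the luciferase median for the stress, amino acid, tRNA synthetase and sterol lists. It lies on the other side of zero for glycolysis (0.20 against -0.48), HIF targets (0.34 against -0.23), immediate early genes (-0.11 against 0.71), ER chaperones (-0.11 against 0.28) and p53 targets (-0.11 against 0.27). For the list of MondoA targets (-0.27 against 0.19) both medians are the values of Mlx alone, whose luciferase value was not called (edgeR adjusted p = 0.0502). For the NADH shuttles (0.01 against -0.20) the LbNOX median lies near zero, and ran from -0.00174 to 0.0615 when 1 LbNOX library was left out.

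With LbNOX 5.01% of all genes rose and 3.87% fell, and the counts for complex I and for the TCA cycle were near these shares and are no result about those lists. Of 36 nuclear complex I subunits 3 rose and none fell (median 0.11, and 0.0694 to 0.13 when 1 LbNOX library was left out), and 0 passed without piericidin replicates 1 or 2 or without DMSO replicate 1, 1 without piericidin replicate 3 or DMSO replicate 2, and 4 without DMSO replicate 3. Of 13 transcripts encoded by mitochondrial DNA mt-Co1 rose and mt-Nd1 and mt-Nd2 fell (median -0.15, and -0.24 to -0.11 when 1 LbNOX library was left out), and without any LbNOX library other than piericidin replicate 2 there was 1 call, a fall. Of 10 genes of the NADH shuttles 1, the aspartate transaminase Got1, rose, from 579, 554 and 517 to 693, 723 and 731 normalized counts (0.38 ± 0.08; edgeR adjusted p = 0.00195). Its response was 1.94 ± 0.08 with luciferase, and without DMSO replicate 2 there were 2 shuttle genes that rose. Of 33 genes of pyruvate dehydrogenase and the TCA cycle Pdk1 and Sdhb rose and Pdk4 fell, the last from 347, 435 and 292 to 149, 246 and 187 (-0.90 ± 0.16; edgeR adjusted p = 2.64e-04). Mitochondrial chaperones and proteases rose for 7 of 15 members and fell for 1, Yme1l1 (0 without piericidin replicate 3 or DMSO replicate 1), with a median of 0.21 beside 0.57 with luciferase. The matrix chaperone Hspa9 went from 6469, 6762 and 6380.5 to 8660.2, 8982 and 8580.4 (0.42 ± 0.04) and the protease Lonp1 from 297, 341 and 288 to 577, 517 and 716 (0.96 ± 0.11). The treated libraries lay above all controls for both.

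The counts that follow stand beside the same 5.01% of all genes that rose and 3.87% that fell. Chaperones of the endoplasmic reticulum fell for 5 of 18 members and rose for 1, Herpud1 (0.43 ± 0.05), with a median of -0.11 beside 0.28 with luciferase. The count of 5 that fell was 3 without piericidin replicate 1 or 3 or without DMSO replicate 1 or 2. Hspa5, the chaperone BiP, was at -0.04 on the log2 scale with LbNOX and did not pass, against 2.06 with luciferase, and the responses differed. Of 16 immediate early genes 5 fell and 1, Klf4, rose, with Egr1 going from 1086, 1032 and 964 to 708, 695 and 656 (-0.59 ± 0.10; edgeR adjusted p = 2.72e-04). Of 21 lysosome and autophagy genes 4 rose and none fell. The autophagy receptor Sqstm1, also an ATF4 and NRF2 target, went from 4776, 5024 and 4589 to 6363, 6782 and 6779 (0.47 ± 0.03; edgeR adjusted p = 2.16e-12) beside 3.21 ± 0.03 with luciferase. Of 13 targets of NRF2, the regulator of the antioxidant response, Srxn1, Slc7a11 and Abcc1 rose and G6pdx fell. That was 1 gene risen without piericidin replicate 1 or 2, and no fall without DMSO replicate 2. Of 19 collagen and matrix genes 4 rose, and 2 without piericidin replicate 1 or DMSO replicate 3. Another 2, Col3a1 at -0.14 and Col5a2 at -0.16, fell, and without 1 library the number that fell was 0 for DMSO replicate 2, 2 for DMSO replicate 3 and 1 for each of the others.

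Among single genes with a mean of at least 50 normalized counts, the largest rises beside Trib3 and Cth included Cdsn, an adhesion protein of skin, which went from 10.7, 14.0 and 18.7 to 86.1, 115 and 107 (2.83 ± 0.18; edgeR adjusted p = 6.94e-13). Vldlr, a lipoprotein receptor, went from 21.5, 23.3 and 30.4 to 90.2, 86.7 and 71.5 and the mitochondrial thioesterase Acot2 from 76.1, 89.8 and 66.8 to 262, 261 and 243. In all 3 genes every treated library lay well above the highest control. Stbd1, a glycogen-binding protein, was uneven, at 72.5, 103 and 98.2 under DMSO and 436, 122 and 656 under piericidin, with replicate 2 low in the treated group (2.16 ± 0.67; edgeR adjusted p = 0.0409). The call was lost (edgeR adjusted p in brackets) without piericidin replicate 1 (0.0914), piericidin replicate 3 (0.215), DMSO replicate 1 (0.137), DMSO replicate 2 (0.103) and DMSO replicate 3 (0.087). Gsta1, a glutathione transferase of a family with near-identical members whose reads may be shared, went from 46.5, 16.6 and 28.5 to 116, 175 and 88.9 (2.06 ± 0.34), beside 2.10 ± 0.34 with luciferase, and the difference of -0.04 ± 0.49 between the lines did not pass (edgeR adjusted p = 0.961). The largest fall by this rule was that of Ctnnal1, a catenin-like protein, from 313, 308 and 281 to 145, 141 and 136 (-1.10 ± 0.13; edgeR adjusted p = 2.21e-07). Acta1, skeletal muscle actin, went from 149, 205 and 135 to 368, 322 and 301 (1.01 ± 0.14; edgeR adjusted p = 5.84e-06) and rose with luciferase too (0.86 ± 0.14).

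Against mitoLbNOX the response to piericidin differed for 59 genes, or 0.493%, of which 19 were higher and 40 lower with LbNOX, and the contrasts with the other lines share the LbNOX libraries. The transgene was at 6696 to 13457 estimated counts with LbNOX and 19533 to 24020 with mitoLbNOX, ranges that did not overlap, and its part in these differences was not tested. The count was 24 with only the groups compared in the fit, 94 with the well as a covariate and 125 without the filter on low counts. The lower ones included Atf4 (-0.44 ± 0.04; edgeR adjusted p = 1.02e-06), Ddit3 (-0.48 ± 0.10; edgeR adjusted p = 0.0081) and Gtpbp2, which had 94.4, 107 and 89.8 normalized counts in treated LbNOX and 159, 205 and 194 in treated mitoLbNOX libraries. For Gtpbp2 these groups did not overlap, and the difference between the responses was -1.31 ± 0.16 (edgeR adjusted p = 2.64e-05). Of the ISR list 3 of 13 genes differed, all lower with LbNOX, and of the tRNA synthetases 6 of 20, also lower. Of 21 glycolysis genes 5 differed, all higher with LbNOX, as were 2 of 16 HIF targets. Bnip3 had 598, 695 and 659 in treated LbNOX and 205, 214 and 254 in treated mitoLbNOX libraries, without overlap, and its responses differed by 1.16 ± 0.19 (edgeR adjusted p = 0.00113). Slc16a3 had 278, 264 and 278 with LbNOX against 85.2, 72.4 and 98.2 with mitoLbNOX, and differed by 1.26 ± 0.28 (edgeR adjusted p = 0.0246), a call that was lost when any 1 of 7 libraries was left out (edgeR adjusted p without piericidin replicate 1, 0.0656, piericidin replicate 3, 0.0623, DMSO replicate 1, 0.0679, DMSO replicate 3, 0.0817, mitoLbNOX piericidin replicate 1, 0.0628, mitoLbNOX piericidin replicate 2, 0.108, mitoLbNOX DMSO replicate 2, 0.0828).

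Against NDI1 the response differed for 152 genes, or 1.27%, of which 131 were higher and 21 lower with LbNOX. The amino acid synthesis list held 12 of them, the tRNA synthetases 8, the glycolysis list 8 and the ISR list 6, all higher with LbNOX, and the sterol list 7, all lower. The count over all genes was 96 without piericidin replicate 2 of NDI1, 71 with only the groups compared and 244 without the filter on low counts. On the plate of the labelled wells, both NDI1 DMSO libraries had outer positions and both NDI1 piericidin libraries inner ones. Well and treatment therefore cannot be told apart within the NDI1 line. Trib3 had 464, 468 and 487 normalized counts in treated LbNOX and 368 and 398 in treated NDI1 libraries, which did not overlap, against 320.1 and 274 in the NDI1 controls, and the responses differed by 2.26 ± 0.14 (edgeR adjusted p = 1.97e-12). The LbNOX controls of Trib3 had 60.9, 89.8 and 76.6, and this gap between the controls is part of the difference. Controls were also lower with LbNOX for Cth (77.0, 70.5 and 74.6 against 191 and 221) and Cdsn (10.7, 14.0 and 18.7 against 46.8 and 54.1). Those of Aldoa were higher with LbNOX (7143, 7170 and 6816 against 6117 and 6347). Levels under DMSO were not tested between these lines. Aldoa had 9199, 9274 and 8864 with LbNOX against 6215 and 6144 with NDI1, and the responses differed by 0.38 ± 0.05 (edgeR adjusted p = 1.38e-05). The 3 treated LbNOX libraries were again above both treated NDI1 libraries.

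Under DMSO alone, LbNOX and luciferase myoblasts differed for 319 genes, or 2.66%, of which 155 were higher and 164 lower with LbNOX. Of 19 collagen and matrix genes 6 were higher with LbNOX, among them Col6a2 by 1.92 on the log2 scale, and Col1a1 was lower (-0.54). Of 16 immediate early genes 3 were higher and 1 lower, 4 of 13 mitochondrially encoded transcripts were lower, and so were 2 of the 8 myoblast markers, Des (-0.33) and Chrna1 (-0.26). Among the lists described for piericidin, 1 of 21 glycolysis genes and 2 of 16 HIF targets were higher, and each list not named here had at most 2 genes called in either direction. On the plate of the labelled wells, the 3 luciferase DMSO libraries all had outer positions, whereas 2 of the 3 LbNOX DMSO libraries did. With outer or inner well as a term in the model 345 genes differed, and without LbNOX DMSO replicate 2 or luciferase DMSO replicate 1 there were 208 and 207.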

How the data were processed

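RNA was measured in C2C12 myoblasts by Smart-seq2, a full-length method that primes on poly(A) tails. The authors deposited estimated counts per gene, which the submitters' processing notes credit to bcl2fastq 2.20.0.422, kallisto 0.44 and the mm10 build. They are held as whole numbers and were used as they stand. All 37 myoblast samples treated for 10 hr, in 13 groups, entered one edgeR fit (R 4.3.3, edgeR 4.0.16; TMM scaling, quasi-likelihood F test, Benjamini-Hochberg adjustment at 0.05), so that groups outside each comparison add to its estimate of spread. A gene was tested where 1 group or more had 16 or more counts in each of its replicates, which left 11978 of 54150, and transgenes stayed out of the tests. Normalized counts were scaled with DESeq2 1.42.0 size factors, SE was taken from the F statistic as the size of the log2 fold change over its root, and differences between lines are interaction terms. No value column was left unmapped (0). Depth ran from 8449096 to 14960910 estimated counts in the LbNOX libraries, and low counts such as those of Atf3 and Txnip carry more counting error.

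The samples, gene lists and tests were chosen with earlier results of these data known. The 121 genes eligible to be named were the genes of the study, up to 4 called members of each list by smallest p (up to 2 where none was called) and, among called genes with a mean of at least 50 normalized counts and a regular symbol, those of largest change, of opposite direction in luciferase myoblasts, called with LbNOX and not with luciferase, or of largest difference from mitoLbNOX or NDI1. Other list members were named after their values were seen. Positions came from GENCODE M21 on GRCm38, which held 11971 of the 11978 genes. Promoter sequences came from RefSeq on GRCm38.p6, in 11307 windows of 300 bases for 8831 genes, and the ACGTG core was chosen after seeing the data. The alternatives were DESeq2 size factors, the DESeq2 Wald test, no filter on low counts, the replicate number as a block, outer or inner well, from the labelled position, as a covariate, only the groups compared, and leaving out each library. Scripts were tested on simulated data. No replicates were identical. Beyond their part in the estimate of spread, other treatments of the series were not analysed here, nor were other times and cells.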

Additional observations from a re-analysis of the deposited data

Results flagged for a closer look

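The response to piericidin differed by the edgeR interaction test between LbNOX and luciferase myoblasts for 5310 genes, between LbNOX and mitoLbNOX for 59 and between LbNOX and NDI1 for 152. For single genes the differences below are those of the log2 fold changes, LbNOX minus the other line, each past an adjusted p of 0.05 in edgeR.

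Against luciferase, genes that rose with LbNOX differed by 1.89 for Pfkl, 0.96 for Slc48a1, 0.85 for Ldha, 0.79 for Tpi1, 0.55 for P4ha1, 0.39 for Aldoa and 0.20 for Esd. Genes that fell with LbNOX differed by -2.14 for Plk2, -1.18 for Dynap, -0.45 for Dnajc3, -0.30 for Prc1 and -0.25 for Arl6ip5.

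Against mitoLbNOX, the differences were 1.26 for Slc16a3, 1.16 for Bnip3 and 0.47 for Fam162a. They were 0.66 for Prl2c3 and 0.52 for Prl2c2, near-identical paralogs whose reads may be shared. The response was lower with LbNOX by -1.37 for Vldlr, -1.31 for Gtpbp2, -0.92 for Gpr176, -0.87 for Sesn2 and -0.69 for Arid5a.

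Against NDI1, the differences were 2.33 for Cdsn, 2.26 for Trib3, 2.06 for Cth, 1.61 for Slc7a11 and 1.57 for Slc16a3. They were -1.07 for Pik3cb, -0.94 for Ctnnal1, -0.93 for Hyls1, -0.72 for Elovl6 and -0.66 for Idi1. For Cdsn, Trib3, Cth and Slc7a11 the LbNOX controls lay below the NDI1 controls, and for Slc16a3 above them. The difference from NDI1 was no longer called without NDI1 DMSO replicate 1 for Slc16a3 (edgeR adjusted p = 0.0745), nor without NDI1 piericidin replicate 1 or DMSO replicate 1 for Ctnnal1 (0.0934 and 0.102). When only the groups compared were fitted, the difference of Vldlr from mitoLbNOX (edgeR adjusted p = 0.0713) and that of Ctnnal1 from NDI1 (0.0635) were not called.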

How the results depend on the processing

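No called direction of a named gene turned under any alternative. With the replicate number as a block 1179 genes were called with LbNOX, and all 112 calls among the named genes were kept. Deviations of same-numbered libraries correlated at -0.168, -0.114 and 0.051 between the LbNOX groups, at 0.153, 0.132 and 0.007 between LbNOX and luciferase under DMSO and at 0.024, 0.207 and 0.155 under piericidin. None of these had all 3 pairs over 0.1, so the numbers were not taken to pair the samples. With only the groups compared fitted, the counts were 558 for LbNOX, 24 and 71 for the differences from mitoLbNOX and NDI1, and 169 under DMSO. Without the filter on low counts they were 1183 (793 higher) for LbNOX and 125 and 244 for the differences, and the medians were 0.336 for amino acid transporters and 0.342 for tRNA synthetases. With the well as a covariate the difference from mitoLbNOX held 94 genes and the transporter median was 0.375. Of the 1063 genes, 64.4% were called without the filter, 49.3% with only the groups compared, 96.4% with DESeq2 size factors, 92.0% by the DESeq2 Wald test and 90.5% with the well. Leaving out 1 library gave 714 to 939 genes for LbNOX, 96 to 144 for the difference from NDI1, 207 to 253 under DMSO, and medians of 0.677 to 0.811 for ISR regulators, 0.334 to 0.405 for tRNA synthetases and 0.336 to 0.37 for HIF targets. The motif share among genes that rose was 4.39% for TGATGCAA, beside 0.691% of all genes, and 34.9% for ACGTG, beside 30.1%, the latter added after seeing the data. Low counts limit the precision of Atf3 and Txnip. The cause of these shifts was not tested.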

Other observations

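Of the 152 genes that changed with LbNOX and did not pass with luciferase, 82 also differed in response between the lines (edgeR). Beside Aldoa and P4ha1, the rule for this class named Esd, Dnajc3, Arl6ip5 and Prc1. Esd, an esterase that clears formaldehyde adducts of glutathione, went from 6761, 6712 and 6547 normalized counts under DMSO to 7556, 7897 and 7644 under piericidin with LbNOX (0.20 ± 0.03; edgeR adjusted p = 3.47e-05), beside -0.00 ± 0.03 with luciferase. Dnajc3, a co-chaperone of the endoplasmic reticulum that also inhibits the eIF2 alpha kinases, went from 1055, 1021 and 942 to 752, 774 and 759 (-0.41 ± 0.07; edgeR adjusted p = 1.20e-04), beside 0.05 ± 0.07. Prc1, a crosslinker of the mitotic spindle, went from 2327, 2195 and 2171 to 1827, 1839 and 1919 (-0.26 ± 0.05; edgeR adjusted p = 2.38e-04), beside 0.03 ± 0.05. In each of these the treated LbNOX libraries did not overlap their controls. With mitoLbNOX the same genes were called too, at 0.27 ± 0.03 for Esd, -0.46 ± 0.07 for Dnajc3 and -0.29 ± 0.05 for Prc1 (edgeR adjusted p = 1.23e-07, 9.93e-06 and 4.44e-05), and no difference from LbNOX was called. Arl6ip5 was at -0.30 ± 0.05 with LbNOX, -0.30 ± 0.05 with mitoLbNOX (edgeR adjusted p = 1.99e-04) and -0.05 ± 0.05 with luciferase, and its difference between LbNOX and luciferase was not called without the filter on low counts (edgeR adjusted p = 0.208).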
